A study of Rattus norvegicus with 19 samples.

Results

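The NRF2 and antioxidant enzyme genes are a set of 34 genes, chosen by gene symbol, and were read in the renal cortex of 19 rats, all males of the Crl:CD (SD) strain. Each rat gave 1 Agilent array in 1 colour. All 34 were found among the gene names of the array's probes, control spots left out, and all 34 were among the 24238 genes tested. Of them, 33 were well above background on all 19 arrays. The exception was Slc7a11, the cystine carrier, which was above background on 10 arrays. No member was saturated on any array.

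The 5 Sham rats had a vehicle injection. The 7 DKD rats had streptozotocin, which kills beta cells of the pancreas, at 65 mg/kg into a vein. The 7 DKD+enarodustat rats had the same streptozotocin injection and then enarodustat at 0.01% of the feed by weight. Enarodustat blocks the prolyl hydroxylases that mark hypoxia-inducible factors for breakdown. Injection came 7 days before the rats were grouped and kidneys were taken 14 days after grouping; the diabetic groups were balanced for body weight and blood glucose, and 19 rats had been injected to give the 14 used. The labels give no age. The samples are whole cortex, so fewer cells of a type and less RNA per cell cannot be told apart.

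NRF2, encoded by Nfe2l2, is a transcription factor that KEAP1 holds in the cytoplasm and marks for breakdown by the proteasome. Oxidants and electrophiles modify cysteines of KEAP1, NRF2 then accumulates, pairs with small MAF proteins and binds antioxidant response elements in front of genes for glutathione synthesis, quinone reduction, thioredoxin reduction and NADPH supply. Glutathione and thioredoxin are the main thiol systems that feed electrons from NADPH to the peroxidases, and the proximal tubule, with its dense mitochondria, is a major user of both in the kidney.

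Diabetic cortex differed from Sham cortex in more than 1 direction within the set. Of 34 members, 9 were higher in DKD than in Sham and 4 were lower, at an adjusted p under 0.05 (limma, two-sided, Benjamini-Hochberg over all genes tested). That is 38.2% of the members, where 17.1% of all genes tested passed the same threshold. In a fit of probes above background on all 19 arrays, as nearly all members were, 22.6% of genes passed. By direction, 26.5% of members and 8.02% of all genes were higher, and 11.8% of members and 9.07% of all genes were lower. In 6 members every DKD rat lay above every Sham rat and in 1 every DKD rat lay below; such separation was found for 20.6% of the members and 10.7% of all genes. The median difference was 0.08 on the log2 scale over the members and -0.02 over all genes. Scaling moved the balance of directions: 46.9% of all called genes were higher here, against 34.7% with normexp background correction and quantile normalisation, where 8 members were higher and 6 lower. All 13 called members kept their sign under the 4 other scalings tried (the authors' value table, quantile normalisation with and without normexp, and arrays centred on their medians), and 9 kept the call under all 4. The higher members were Gpx2, Srxn1, Nqo1, Gpx1, Sod3, Nfe2l2, Txnrd1, Gpx4 and Prdx5, and the lower ones Gclc, Gss, Ggt1 and Me1.

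Few members were called between the diabetic groups. Between DKD+enarodustat and DKD, 1 of 34 members passed the threshold, Txnrd1, which was lower; this is 2.94% of the members, where 2% of all genes passed, so the share is near the background. By direction, 0 members and 1.07% of all genes were higher, and 1 member and 0.928% of all genes lower. At an unadjusted p under 0.05 in the same fit, 2 members were higher (Pgd and Sod3) and 4 lower (Cat, Prdx3, Txn2 and Txnrd1). In the authors' value table, where 9.64% of all genes passed, Txnrd1 kept its call and others were called too (limma). These were Pgd (0.26, adjusted p = 0.0063), Cat (-0.29, adjusted p = 0.0324), Txn2 (-0.20, adjusted p = 0.0319) and Prdx3 (-0.19, adjusted p = 0.0107). Against Sham, DKD+enarodustat rats had 8 higher and 8 lower members, 47.1% of the set, where 26.1% of all genes passed (10% higher and 16% lower). With probes above background on all 19 arrays alone, 33.5% of genes passed in that comparison. The groups did not overlap for 38.2% of the members in that comparison and for 14.4% of all genes. The comparisons share the DKD or the Sham rats. In all, 18 members passed in at least 1 comparison and 16 in none.

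**Figure D1:**
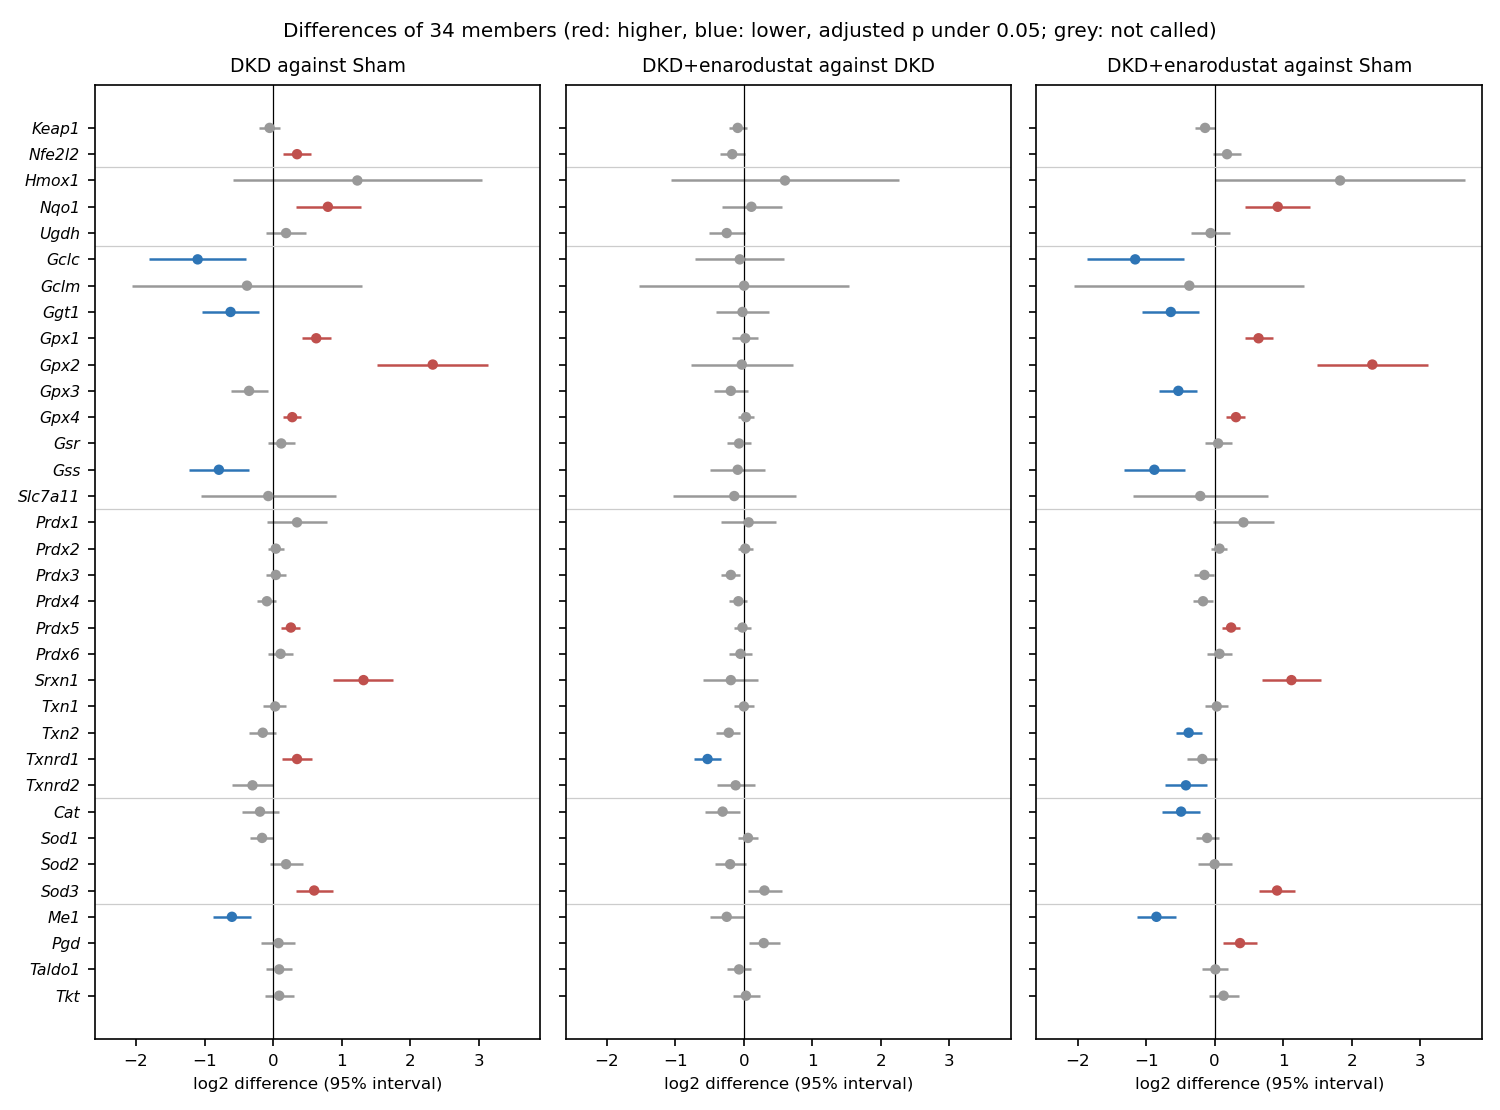
Log2 differences of the 34 members with 95% intervals from the limma fit, in 3 comparisons, grouped by role from regulators at the top to NADPH supply at the bottom; red marks higher, blue lower and grey not called. Of the coloured members, Gpx2 and Srxn1 stand farthest right in both comparisons with Sham, Gclc and Gss lie to the left of 0 in both, and in the comparison of DKD+enarodustat with DKD the 1 coloured member is Txnrd1.

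Levels below are log2 of the processed spot intensity minus the array's 75th percentile of it, so 0 is that percentile and 1 unit is a doubling; they are comparable between rats for 1 gene, not between genes. Sham arrays all sat in row 1 of their slides and DKD+enarodustat arrays all in row 2, while DKD arrays sat in both rows (replicates 2 and 4 in row 2). On average 64.9% of probes were well above background in row 1 and 58.3% in row 2. For DKD+enarodustat against Sham the row and the group therefore cannot be told apart from those arrays alone. With the row as a covariate, estimated from the DKD rats, 3 of the 16 member calls in that comparison kept their call: Nqo1 (1.48), Sod3 (0.85) and Me1 (-0.99). The other 13 kept their sign at adjusted p-values of 0.0535 to 0.889 (limma). Gclc (-0.51), Gss (-0.42), Gpx3 (-0.16), Srxn1 (0.65) and Pgd (0.07) were smaller by over 1.5 times than without the row. The remaining values were 2.24 for Gpx2, 0.64 for Gpx1, 0.35 for Gpx4, 0.28 for Prdx5, -0.49 for Ggt1, -0.33 for Cat, -0.29 for Txn2 and -0.37 for Txnrd2. For DKD against Sham 8 of 13 kept it, and Gclc (-0.92), Gss (-0.66), Ggt1 (-0.58), Nfe2l2 (0.31) and Txnrd1 (0.32) did not, at adjusted p-values of 0.055 to 0.108 (limma).

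Promoters of 4 members are shown because they hold sequence letters that NRF2 and related factors are known to bind. Each stretch is the 250 bases before the gene's start in RefSeq's table for assembly GRCr8, written 5′ to 3′ on the gene's strand. Capitals mark matches, on either strand, to the core of the antioxidant response element, TGACNNNGC, or to the core bound by AP-1 and MAF proteins, TGAGTCA. Gpx2 (chr6:101230034-101230283, minus strand) and Srxn1 (chr3:161064562-161064811, plus strand) were higher in DKD, Me1 (chr8:96540245-96540494, minus strand) was lower, and Prdx1 (chr5:135383656-135383905, plus strand) was not called.
Gpx2: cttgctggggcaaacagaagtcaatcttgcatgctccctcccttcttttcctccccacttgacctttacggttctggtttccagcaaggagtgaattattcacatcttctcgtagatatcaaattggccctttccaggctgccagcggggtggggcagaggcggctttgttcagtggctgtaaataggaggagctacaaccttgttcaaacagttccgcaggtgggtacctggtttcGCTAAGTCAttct
Srxn1: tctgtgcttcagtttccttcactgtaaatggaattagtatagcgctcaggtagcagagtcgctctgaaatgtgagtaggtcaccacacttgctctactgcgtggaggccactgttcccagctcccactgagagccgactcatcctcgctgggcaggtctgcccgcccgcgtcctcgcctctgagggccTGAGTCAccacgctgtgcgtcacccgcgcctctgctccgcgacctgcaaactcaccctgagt
Me1: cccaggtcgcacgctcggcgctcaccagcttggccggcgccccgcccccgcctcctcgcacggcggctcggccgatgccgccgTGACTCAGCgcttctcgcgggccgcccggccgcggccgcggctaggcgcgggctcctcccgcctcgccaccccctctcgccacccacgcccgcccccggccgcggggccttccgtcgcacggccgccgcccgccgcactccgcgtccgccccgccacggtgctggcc
Prdx1: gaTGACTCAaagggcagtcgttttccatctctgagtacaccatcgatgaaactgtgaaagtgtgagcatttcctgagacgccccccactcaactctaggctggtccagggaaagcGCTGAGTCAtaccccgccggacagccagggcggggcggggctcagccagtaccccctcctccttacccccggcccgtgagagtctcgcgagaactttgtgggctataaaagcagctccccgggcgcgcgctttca
The match in Gpx2 lies 13 to 5 bases before the start, that in Srxn1 62 to 56 bases before it, and that in Me1 167 to 159 bases before it. In Me1, and in 1 of the 2 places in Prdx1, a TGAGTCA match lies within the TGACNNNGC match. Over the members, 6 of 30 with a promoter entry held TGACNNNGC (Gclm, Gpx2, Me1, Prdx1, Sod2 and Ugdh), 20% where 10.2% of 27457 promoters of the same length did. TGAGTCA was found in 3 of 30 members (Me1, Prdx1 and Srxn1) and in 3.98% of all promoters. Members with a match were found among those higher, lower and not called in DKD. Gclc, Nqo1, Gss, Gpx1 and Ggt1, whose DKD minus Sham differences were larger in size than that of Me1, had an entry and no match within these 250 bases. Sequence farther from the start was not searched, so a missing match does not show that a gene lacks the element. Prdx6, Sod3, Gsr and Hmox1 had no entry in the table.

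Of the regulators, Nfe2l2 was higher in DKD. Its Sham levels were 1.1, 1.13, 1.45, 1.19 and 1.21 in replicates 1 to 5. In DKD rats it ranged from 1.42 to 1.83 with a median of 1.5, and in DKD+enarodustat rats from 1.16 to 1.59 with a median of 1.48. Sham replicate 3 lay within the DKD range and 5 of 7 DKD rats lay above every Sham rat. The DKD minus Sham difference was 0.35 ± 0.09 (SE; adjusted p = 0.0161, limma), a 1.27-fold difference. After enarodustat the difference from DKD was -0.17 ± 0.09 (adjusted p = 0.412), with a 95% interval of -0.35 to 0.01, and that from Sham was 0.18 ± 0.09 (adjusted p = 0.182). The Nfe2l2 probe lies at chr3:58367137-58367196 on rat build rn4, minus strand.

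Keap1, the adaptor that marks NRF2 for breakdown, had levels of -2.46, -2.44, -2.57, -2.63 and -2.36 in Sham. DKD rats ranged from -2.75 to -2.40 with a median of -2.50 and DKD+enarodustat rats from -2.77 to -2.52 with a median of -2.62. The groups overlapped and no comparison was called. The DKD minus Sham difference was -0.05 ± 0.07 (adjusted p = 0.736, limma), with a 95% interval of -0.20 to 0.10.

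Nqo1, which reduces quinones by 2 electrons with NADPH and is the usual readout gene of NRF2, was higher in both diabetic groups. Sham levels were -4.86, -4.42, -4.10, -4.01 and -4.23. DKD levels ranged from -4.55 to -2.90 with a median of -3.32, and DKD+enarodustat levels from -3.81 to -3.06 with a median of -3.49. DKD replicate 4, at -4.55, lay among the Sham rats and the other 6 lay above all of them, as did all 7 DKD+enarodustat rats. The differences were 0.80 ± 0.23 for DKD against Sham (1.75-fold, adjusted p = 0.0204, limma) and 0.92 ± 0.23 for DKD+enarodustat against Sham (adjusted p = 0.00615). Without Sham replicate 1 the first was 0.67 (adjusted p = 0.0667). The sizes depended on the scaling: with normexp correction and quantile normalisation they were 0.44 and 0.50, and from the values the authors deposited they were 0.38 and 0.44; all 4 stayed past the threshold (limma). Within slides 1, 2 and 3 the DKD difference was 1.2, 0.13 and 0.93, and slide 2 holds DKD replicate 4. DKD+enarodustat minus DKD was 0.11 ± 0.21 (adjusted p = 0.917), with an interval of -0.32 to 0.55.

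Hmox1, the inducible haem oxygenase, spread widely in every group. Sham levels were -3.16, -1.05, -3.12, -2.99 and 1.65, so that replicate 5 stood above the other 4. DKD levels ranged from -2.20 to 2.19 with a median of -0.59 and DKD+enarodustat levels from -2.16 to 1.5 with a median of 0.33. Of the 5 Sham rats, 3 lay below every diabetic rat, while Sham replicate 5 was exceeded by DKD replicate 7 alone. Neither DKD (difference 1.23 ± 0.87, adjusted p = 0.40, limma) nor DKD+enarodustat (1.83 ± 0.87, adjusted p = 0.134) was called against Sham. Without Sham replicate 5 the latter difference was 2.68 ± 0.76 (adjusted p = 0.0166). Ugdh, which makes UDP-glucuronate for conjugation reactions, was not called in any comparison; its largest difference was -0.25 ± 0.13 between DKD+enarodustat and DKD (adjusted p = 0.402).

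The glutathione genes went in opposite directions. Of 10, in DKD against Sham 3 were higher (the peroxidases Gpx1, Gpx2 and Gpx4), 3 were lower (Gclc, Gss and Ggt1) and 4 were not called, with a median difference of -0.21. Gpx2, a peroxidase best known from gut epithelium, had the largest difference of the set. Its Sham levels were -1.39, -0.31, 0.15, -0.91 and 0.69. DKD rats ranged from 1.47 to 2.91 with a median of 1.49 and DKD+enarodustat rats from 1.27 to 3.07 with a median of 1.90, so that every diabetic rat lay above every Sham rat. The DKD minus Sham difference was 2.33 ± 0.38 (5.01-fold, adjusted p = 0.000415, limma), with a 95% interval of 1.52 to 3.13. Within single slides it was 3.05, 2.85 and 0.79 on slides 1, 2 and 3; slide 3 held 1 Sham rat, replicate 5, the highest of the 5. DKD+enarodustat minus DKD was -0.03 ± 0.35 (adjusted p = 0.994), with a wide interval of -0.77 to 0.71. The Gpx2 probe lies at chr6:99372423-99372482 on rn4, minus strand.

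Gpx1, the cytosolic glutathione peroxidase that reduces hydrogen peroxide, was higher in DKD. It had Sham levels of 5.18, 5.65, 5.47, 5.55 and 5.63, a DKD range of 5.93 to 6.32 (median 6.16) and a DKD+enarodustat range of 5.89 to 6.27 (median 6.16). No diabetic rat overlapped a Sham rat. The DKD minus Sham difference was 0.63 ± 0.10 (1.55-fold, adjusted p = 0.000277, limma), and a second Gpx1 probe gave 0.77 ± 0.12. For Gpx4, which reduces lipid hydroperoxides in membranes, Sham levels of 5.37, 5.45, 5.54, 5.55 and 5.38 lay below the DKD range of 5.63 to 5.96 (median 5.73). They also lay below the DKD+enarodustat range of 5.65 to 5.88 (median 5.77). The DKD minus Sham difference of Gpx4 was 0.28 ± 0.06 (adjusted p = 0.00492) and its second probe gave 0.36 ± 0.07. This small difference depended on the scaling: it was 0.12 with quantile normalisation (adjusted p = 0.242), 0.12 in the authors' value table (adjusted p = 0.0924) and 0.27 with arrays centred on their medians (adjusted p = 0.0554).

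Gpx3, the secreted plasma peroxidase that the proximal tubule makes, lay in the opposite direction. Sham levels were 5.62, 5.34, 5.61, 5.59 and 5.65, DKD levels ranged from 4.83 to 5.54 (median 5.20) and DKD+enarodustat levels from 4.60 to 5.27 (median 5.15). All 7 DKD+enarodustat rats lay below every Sham rat, and 4 of 7 DKD rats did, with replicate 5 level with the lowest Sham rat at 2 decimals. DKD+enarodustat against Sham was called at -0.53 ± 0.13 (adjusted p = 0.00577, limma); without slide 2 it was -0.50 (adjusted p = 0.0642) and with the slide row in the fit -0.16 (adjusted p = 0.758). DKD against Sham was not called at -0.35 ± 0.13 (adjusted p = 0.0799). It was called without DKD replicate 6 (-0.40, adjusted p = 0.0451), with the replicate number as a block (-0.41, adjusted p = 0.00756), with quantile normalisation (-0.52, adjusted p = 0.00991) and in the authors' value table (-0.48, adjusted p = 0.000899).

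Of the genes of glutathione synthesis and turnover, Gclc, Gss and Ggt1 were lower and Gclm, described further on, was not called. Gclc encodes the catalytic subunit of glutamate-cysteine ligase, the rate-limiting step of synthesis. Its Sham levels were close together at 6.08, 5.85, 6.07, 6.13 and 5.70, while DKD levels spread from 3.47 to 5.76 (median 4.85) and DKD+enarodustat levels from 3.87 to 5.63 (median 5.02). All Sham rats lay above the diabetic rats except for DKD replicate 3, at 5.76, which passed Sham replicate 5. The difference was -1.10 ± 0.34 in DKD (2.14-fold lower, adjusted p = 0.0321, limma) and -1.16 ± 0.34 in DKD+enarodustat (2.23-fold lower, adjusted p = 0.0169; -0.51, adjusted p = 0.715, with the slide row in the fit). With the replicate number as a block the DKD difference was -1.08 (adjusted p = 0.0525), and leaving out Sham replicate 1, 2, 3 or 4 or DKD replicate 5 or 6 gave adjusted p-values of 0.0511 to 0.0704. Without slide 2, an alternative chosen after the Gclm levels had been seen, it was -0.91 (adjusted p = 0.139).

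Gss, glutathione synthetase, carries out the second step. Sham levels were 2.29, 2.04, 2.32, 2.36 and 1.98, and the ranges were 1.00 to 2.23 in DKD (median 1.25) and 0.69 to 1.80 in DKD+enarodustat (median 1.34). DKD replicate 3 again lay among the Sham rats and the other 13 diabetic rats lay below them. The differences from Sham were -0.79 ± 0.21 in DKD (adjusted p = 0.0139, limma) and -0.88 ± 0.21 in DKD+enarodustat (adjusted p = 0.00454; -0.42, adjusted p = 0.594, with the slide row in the fit). Ggt1, gamma-glutamyltransferase of the brush border, which starts the breakdown of extracellular glutathione, had Sham levels of 4.30, 4.23, 4.25, 4.44 and 4.06. DKD levels ranged from 3.15 to 4.28 (median 3.42) and DKD+enarodustat levels from 3.04 to 4.01 (median 3.75), with DKD replicates 3 and 7 among the Sham rats. Its DKD minus Sham difference was -0.62 ± 0.20 (adjusted p = 0.0369). A second probe gave -0.64 ± 0.19. Leaving out any 1 of Sham replicates 1 to 4 or DKD replicates 1, 2, 4, 5 or 6 took the adjusted p of the first probe to between 0.0538 and 0.0891. In DKD+enarodustat the difference from Sham was -0.64 ± 0.20 (adjusted p = 0.0221), and -0.60 (adjusted p = 0.0562) without Sham replicate 4.

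Among diabetic rats, Gclc levels followed the mean level of 4 proximal straight tubule markers in both groups. No other marker list was set against these genes, so the relation cannot be called particular to that segment. For Gss neither relation with the markers passed the test. For Ggt1 the relation passed in DKD+enarodustat and not in DKD. For each gene r was lower without 2 rats. The markers, Slc7a13, Slc5a1, Slc22a7 and Acmsd, had a mean level of -0.69 to -0.42 in Sham rats, -1.73 to -0.27 in DKD rats and -1.02 to -0.35 in DKD+enarodustat rats. Of the 4, Slc7a13 was lower in DKD (-1.42 ± 0.35, adjusted p = 0.00862, limma) and the other 3 were not called: Acmsd (-0.59 ± 0.21), Slc5a1 (0.32 ± 0.18) and Slc22a7 (0.80 ± 0.36). DKD replicate 4 had the lowest marker mean, -1.73, and the lowest Gclc level, 3.47. It also had the lowest thick ascending limb marker mean of its group, 0.66, and an adipocyte marker mean of -0.5. Its array sat in row 2 and had the lowest share of probes above background in DKD, 54.7%. DKD replicates 3 and 7 had the highest straight tubule marker means, -0.28 and -0.27, and the highest Ggt1 levels of their group. The relations were looked at after these values had been seen, as 12 correlations over 7 rats each. Exact two-sided permutation tests were used, with p-values adjusted over the 12, separately for r and for rho. That adjustment does not cover the choice of these genes and markers, made from the same rats, so the p-values describe these rats only. Gclc against the marker mean gave r = 0.97 in DKD (p = 0.00476, adjusted 0.0161; rho = 0.85, p = 0.0238, adjusted 0.0476) and r = 0.91 in DKD+enarodustat (p = 0.00536, adjusted 0.0161; rho = 0.89, p = 0.0123, adjusted 0.0369), by the exact permutation test. Without the 2 rats farthest from the median Gclc level of their group, r was 0.86 and 0.69.

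For Ggt1 against the marker mean, r was 0.66 in DKD (exact permutation p = 0.105, adjusted 0.114; rho = 0.78, p = 0.0524, adjusted 0.0698) and 0.85 in DKD+enarodustat (exact permutation p = 0.0167, adjusted 0.0333; rho = 0.93, p = 0.00675, adjusted 0.0369). Without the 2 rats farthest from the median Ggt1 level of their group, r fell to 0.18 and 0.49. Leaving out the extremes of a gene also narrows its range. Such values therefore cannot show whether a relation rests on 2 rats. For Gss in DKD, r was 0.66 (exact permutation p = 0.119, adjusted 0.119) and rho 0.70 (exact permutation p = 0.10, adjusted 0.10). In DKD+enarodustat, r was 0.72 (exact permutation p = 0.0661, adjusted 0.0938) and rho 0.75 (exact permutation p = 0.0663, adjusted 0.0723). Without the 2 rats farthest in Gss, r was 0.34 in DKD and 0.08 in DKD+enarodustat. Between the genes themselves, Gclc and Ggt1 gave r = 0.94 in DKD+enarodustat (exact permutation p = 0.00198, adjusted 0.0161; rho = 0.89, p = 0.0123, adjusted 0.0369), and r = 0.77 without the 2 rats farthest in Gclc. In that group Gss and Ggt1 gave r = 0.93 (exact permutation p = 0.00377, adjusted 0.0161; rho = 0.93, p = 0.00675, adjusted 0.0369; r = 0.80 without 2 rats) and Gclc and Gss r = 0.83 (exact permutation p = 0.021, adjusted 0.0361; rho = 0.82, p = 0.0341, adjusted 0.0512; r = 0.76 without 2 rats). In DKD, Gclc gave r = 0.71 with Gss (exact permutation p = 0.0772, adjusted 0.0938; rho = 0.75, p = 0.0663, adjusted 0.0723; r = 0.44 without 2 rats) and r = 0.70 with Ggt1 (exact permutation p = 0.0782, adjusted 0.0938; rho = 0.86, p = 0.0238, adjusted 0.0476; r = 0.88 without 2 rats). Gss and Ggt1 gave r = 0.86 in DKD (exact permutation p = 0.0123, adjusted 0.0295) and rho = 0.82 (exact permutation p = 0.0341, adjusted 0.0512). Without the 2 rats farthest in Gss, r fell to 0.25. Each slide held 2 or 3 rats of a diabetic group, too few for values within slides. The part of the tubule markers in the lower levels of these genes was not tested.

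**Figure D2:**
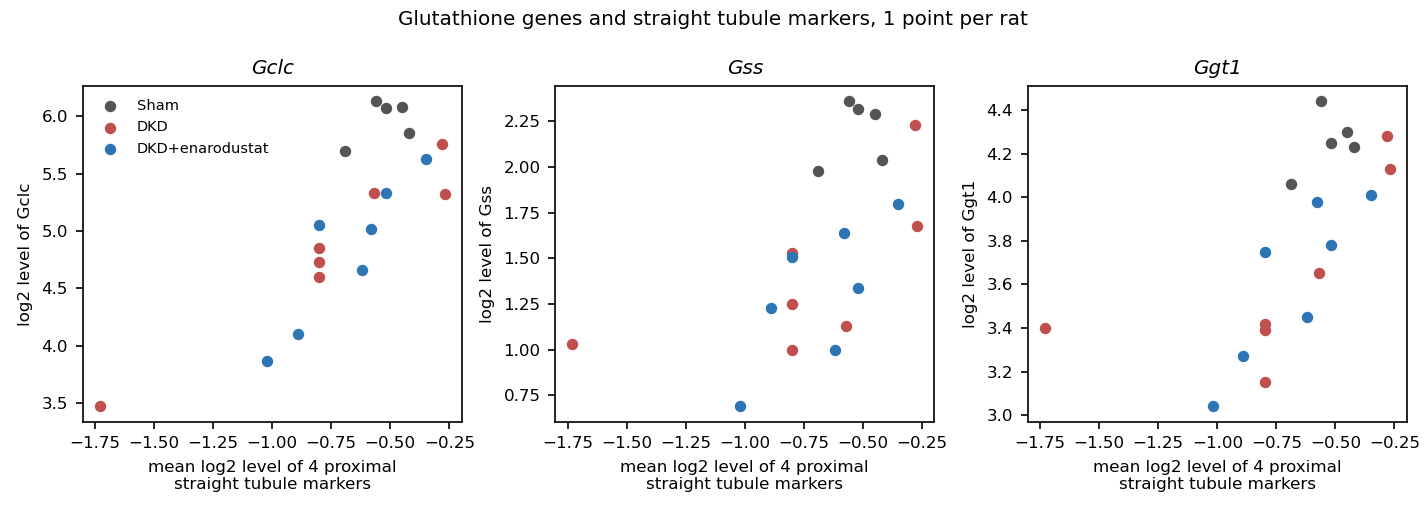
Levels of Gclc, Gss and Ggt1 against the mean level of 4 proximal straight tubule markers, both in log2 units with the array's 75th percentile at 0, 1 point per rat (grey Sham, red DKD, blue DKD+enarodustat). DKD replicate 4 is the point at the far left, at a marker mean of -1.73; the Sham rats sit together between -0.69 and -0.42, at or near the top of each panel.

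No glutathione gene was called between DKD+enarodustat and DKD. The DKD+enarodustat minus DKD difference was -0.06 for Gclc (95% interval -0.71 to 0.59), -0.09 for Gss (-0.49 to 0.31), -0.02 for Ggt1 (-0.40 to 0.36) and 0.02 for Gpx1 (-0.18 to 0.21). Gsr, Gclm and Slc7a11 were not called in any comparison. Gsr, glutathione reductase, had levels of -1.18 to -0.87 in Sham, -1.17 to -0.60 in DKD and -1.05 to -0.76 in DKD+enarodustat. Gclm, the regulatory subunit of the ligase, split by slide rather than by group. On slide 2 its levels were -5.99 to -3.72 in the 6 rats, and on slides 1 and 3 they were -3.00 to -1.28 in the other 13, with all 3 groups on every slide. Gclm and Taldo1 were the members whose slide 2 arrays did not overlap the rest, as was the case for 10.5% of all genes. With the slide as a block, Gclm differed by -0.62 ± 0.33 between DKD and Sham (adjusted p = 0.199, limma). Slc7a11, at -8.46 to -5.79 over all rats, was above background on 4 of 5 Sham, 4 of 7 DKD and 2 of 7 DKD+enarodustat arrays.

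**Figure D3:**
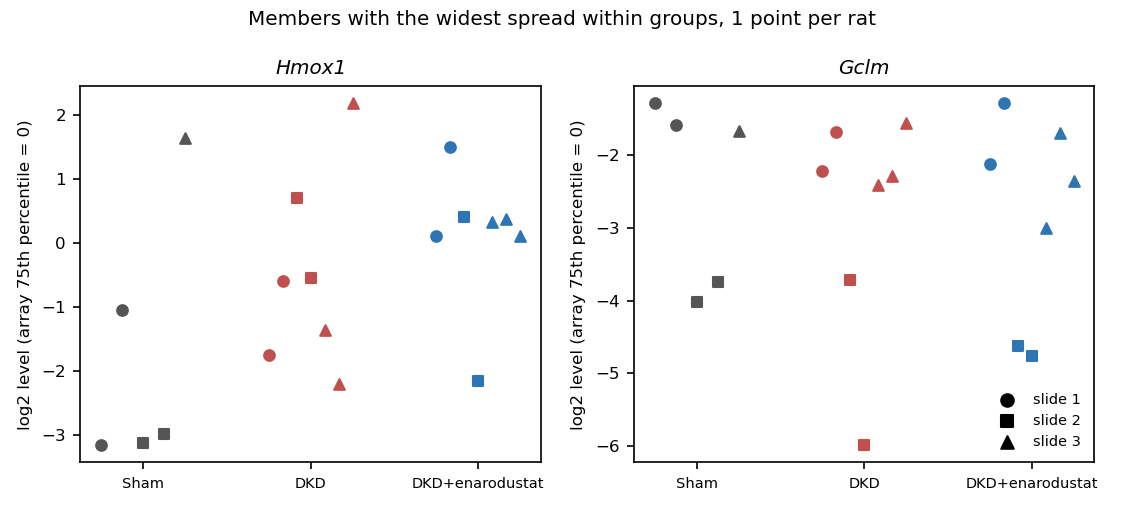
Levels of Hmox1 and Gclm by group in log2 units with the array's 75th percentile at 0, 1 point per rat, with circles, squares and triangles for slides 1, 2 and 3. Hmox1 spreads over several log2 units in each group with no order by slide; the Gclm points of slide 2 (squares) lie at or below -3.72 in every group and the others at or above -3.00.

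Of 11 thioredoxin and peroxiredoxin genes, 3 were higher in DKD, none was lower and 8 were not called; the median difference was 0.04. Srxn1, sulfiredoxin, which repairs overoxidised peroxiredoxins and is a known NRF2 and AP-1 target, had the second largest difference of the set. Sham levels were -0.84, -1.33, -1.24, -1.43 and -1.12. DKD levels ranged from -0.79 to 0.56 (median 0.29) and DKD+enarodustat levels from -0.72 to 0.36 (median -0.06). Every diabetic rat lay above every Sham rat, narrowly so for replicate 1 of each diabetic group (-0.79 and -0.72). The DKD minus Sham difference was 1.32 ± 0.20 (2.49-fold, adjusted p = 0.000241, limma) and the DKD+enarodustat minus Sham difference 1.12 ± 0.20 (adjusted p = 0.000604; 0.65, adjusted p = 0.345, with the slide row in the fit). DKD+enarodustat minus DKD was -0.19 ± 0.19 (adjusted p = 0.762), with an interval of -0.59 to 0.20. The Srxn1 probe lies at chr3:142462543-142462602 on rn4, plus strand.

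Prdx5, a peroxiredoxin of mitochondria, peroxisomes and cytosol, had Sham levels of 3.25, 3.44, 3.21, 3.31 and 3.32 and a DKD range of 3.48 to 3.64 (median 3.58) with no overlap. The difference was 0.26 ± 0.06 (adjusted p = 0.00952, limma). Its DKD+enarodustat range, 3.30 to 3.67 (median 3.56), overlapped the Sham range through replicate 4. With quantile normalisation the DKD difference was 0.16 (adjusted p = 0.0567), and without slide 2 it was 0.22 (adjusted p = 0.0641). The remaining peroxiredoxins, Prdx1, Prdx2, Prdx3, Prdx4 and Prdx6, were not called in any comparison, nor was Txn1, the cytosolic thioredoxin. For DKD+enarodustat against DKD the Txn1 probe used gave 0.00095 ± 0.07. A second Txn1 probe gave 0.51 ± 0.17 there (unadjusted p = 0.00885, adjusted p = 0.158, limma). On rn4 the second probe maps to the plus strand and the first to the minus strand. Prdx3, the mitochondrial peroxiredoxin, was called lower in DKD+enarodustat than in Sham with quantile normalisation (-0.21, adjusted p = 0.0264), also after normexp (-0.21, adjusted p = 0.015), and in the authors' value table (-0.18, adjusted p = 0.00498), where it was lower than in DKD too (-0.19, adjusted p = 0.0107). Prdx4 was called lower in that comparison with Sham with slides as a block (-0.18, adjusted p = 0.0478). Prdx1 had the largest difference of these in DKD, 0.35 ± 0.21 (adjusted p = 0.303), and Prdx2, the main peroxiredoxin of red cells, differed by 0.04 ± 0.05. The 6 erythroid markers ranged in mean level from -3.13 to 0.68 over all rats and 0 of 6 were called in DKD.

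Txnrd1, cytosolic thioredoxin reductase, was the 1 member called between the diabetic groups. Sham levels were -1.69, -1.40, -1.53, -1.52 and -1.18. DKD levels ranged from -1.50 to -0.89 (median -1.10) and DKD+enarodustat levels from -1.89 to -1.50 (median -1.59). DKD replicate 5, at -1.50, lay with the Sham rats, and 6 of 7 DKD+enarodustat rats lay below every DKD rat. The differences were 0.35 ± 0.10 for DKD against Sham (adjusted p = 0.0272, limma) and -0.53 ± 0.10 for DKD+enarodustat against DKD (1.45-fold lower, adjusted p = 0.00454). DKD+enarodustat against Sham was -0.18 ± 0.10 (adjusted p = 0.221). Both called differences share the DKD rats.

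Both Txnrd1 calls depended on the probe and on the fit. A second Txnrd1 probe gave 0.03 ± 0.09 for DKD against Sham (adjusted p = 0.903, limma) and -0.18 ± 0.08 for DKD+enarodustat against DKD (adjusted p = 0.337). The probe that was called lies at chr7:23055528-23055561 on rn4, minus strand, a mapped span of 34 bases, and the other at chr7:23065196-23065255. The mean of both probes was 0.19 (adjusted p = 0.151) and -0.36 (adjusted p = 0.021). The lower level after enarodustat was -0.60 when the slide row was added to the fit (adjusted p = 0.0946) and -0.44 without slide 2 (adjusted p = 0.107); within slides 1, 2 and 3 it was -0.41, -0.77 and -0.46. The higher level in DKD was 0.33 with the replicate number as a block (adjusted p = 0.079) and -0.04 within slide 3. It was lost without Sham replicate 1, 3 or 4 or DKD replicate 3, 4 or 7, at adjusted p-values of 0.0508 to 0.0843.

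The mitochondrial partners, Txn2 and Txnrd2, were lower in DKD+enarodustat than in Sham. Txn2 had Sham levels of 1.09, 1.00, 1.22, 1.16 and 0.98, a DKD range of 0.75 to 1.25 (median 0.84) and a DKD+enarodustat range of 0.53 to 0.86 (median 0.69). The DKD+enarodustat and Sham rats did not overlap. The difference was -0.38 ± 0.09 (adjusted p = 0.00505, limma), against -0.15 ± 0.09 for DKD (adjusted p = 0.29). Txnrd2 had Sham levels of -1.40, -2.06, -1.49, -1.20 and -1.32, a narrow DKD range of -1.86 to -1.72 (median -1.82) and a DKD+enarodustat range of -2.30 to -1.41 (median -1.95). Sham replicate 2 was low. The difference of DKD+enarodustat from Sham was -0.42 ± 0.14 (adjusted p = 0.0402), and with the replicate number as a block it was -0.38 (adjusted p = 0.0563). It also missed the threshold without Sham replicate 1, 3, 4 or 5 or DKD+enarodustat replicate 2, 4, 5, 6 or 7 (adjusted p of 0.0553 to 0.116). Without Sham replicate 2 Txnrd2 was lower in DKD as well (-0.44, adjusted p = 0.0244).

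Of the superoxide and hydrogen peroxide enzymes, Sod3, the extracellular superoxide dismutase, was higher in DKD. Sham levels were 3.43, 2.94, 3.58, 3.66 and 3.41, and the ranges were 3.70 to 4.30 in DKD (median 3.95) and 4.05 to 4.60 in DKD+enarodustat (median 4.33). Every diabetic rat lay above every Sham rat, and 4 of 7 DKD+enarodustat rats lay above every DKD rat. The differences from Sham were 0.60 ± 0.13 in DKD (1.52-fold, adjusted p = 0.00314, limma) and 0.91 ± 0.13 in DKD+enarodustat (1.87-fold, adjusted p = 5.57e-05). DKD+enarodustat minus DKD was 0.30 ± 0.12 (adjusted p = 0.227), and with the replicate number as a block 0.30 ± 0.07 (adjusted p = 0.0317).

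Cat, catalase of the peroxisome, had Sham levels of 1.03, 0.95, 1.12, 1.14 and 0.77, a DKD range of 0.51 to 1.19 (median 0.78) and a DKD+enarodustat range of 0.16 to 0.81 (median 0.54). It was lower in DKD+enarodustat than in Sham (-0.49 ± 0.13, adjusted p = 0.00988, limma), with 5 of 7 rats below every Sham rat, and was not called in DKD (-0.19 ± 0.13, adjusted p = 0.402). Sod1 of the cytosol and Sod2 of the mitochondrial matrix were not called in any comparison. Sod1 in DKD was -0.16 ± 0.08 (adjusted p = 0.181), and it was called lower with quantile normalisation (-0.29, adjusted p = 0.0198) and in the authors' value table (-0.26, adjusted p = 0.00258). Sod2 differed by 0.19 ± 0.12 in DKD (adjusted p = 0.301).

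**Figure D4:**
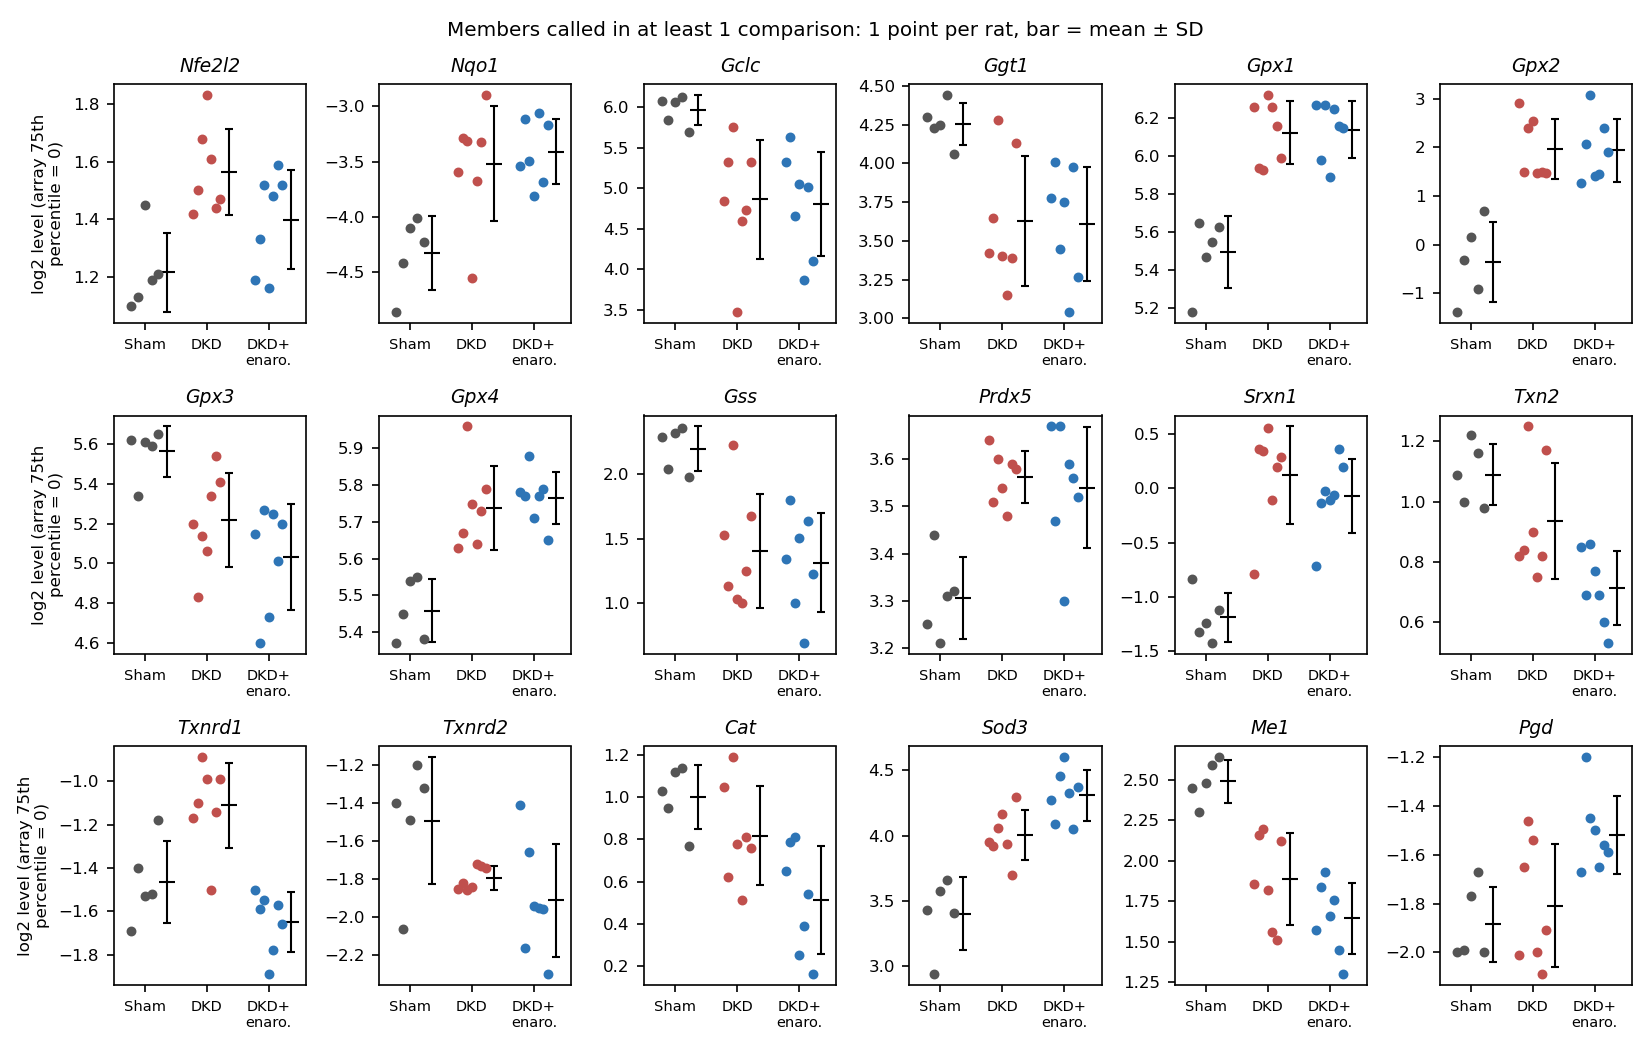
Levels of the 18 members called in at least 1 comparison, in log2 units with the array's 75th percentile at 0, 1 point per rat with the group mean ± SD beside it (Sham n = 5, the others n = 7); each panel has its own axis. Diabetic rats of both groups lie above all Sham rats for Gpx1, Gpx2, Gpx4, Srxn1 and Sod3 and below them all for Me1, and Txnrd1 shows a DKD group that stands above both others apart from 1 rat.

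Of the 4 genes that supply NADPH, Me1 was lower in DKD and the 3 pentose phosphate enzymes were not called there. Me1, the cytosolic malic enzyme, had Sham levels of 2.45, 2.30, 2.48, 2.59 and 2.64, a DKD range of 1.51 to 2.20 (median 1.86) and a DKD+enarodustat range of 1.30 to 1.93 (median 1.66). Every diabetic rat lay below every Sham rat. The differences were -0.60 ± 0.13 in DKD (1.52-fold lower, adjusted p = 0.00434, limma) and -0.85 ± 0.13 in DKD+enarodustat (1.80-fold lower, adjusted p = 0.000157). Pgd, 6-phosphogluconate dehydrogenase, was higher in DKD+enarodustat than in Sham. Its Sham levels were -2.0, -1.99, -1.77, -1.67 and -2.0, its DKD range -2.09 to -1.46 (median -1.91) and its DKD+enarodustat range -1.67 to -1.20 (median -1.56). DKD+enarodustat against Sham was 0.37 ± 0.12 (adjusted p = 0.0268, limma). Adding the slide row gave 0.07 (adjusted p = 0.889), median centring 0.34 (adjusted p = 0.0662), and leaving out single rats 0.34 (adjusted p = 0.0636 to 0.067) without Sham replicate 1, 2 or 5 and 0.32 (adjusted p = 0.0539) without DKD+enarodustat replicate 2. Taldo1 and Tkt, the enzymes of the non-oxidative branch, were not called in any comparison, and Tkt in DKD was 0.09 ± 0.10.

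Beyond the members, lists of related genes were read in the same fit. Over all genes tested, 8.02% were higher and 9.07% lower in DKD than in Sham. Of 17 other known NRF2 target genes, 8 were higher in DKD than in Sham and 1 was lower, with a median of 0.40. Ephx1, microsomal epoxide hydrolase, was higher by 1.51 ± 0.21 (adjusted p = 7.85e-05, limma) and Abcc2, an exporter of glutathione conjugates, by 1.41 ± 0.18 (adjusted p = 3.99e-05). Blvrb, biliverdin reductase B, was higher by 0.70 ± 0.14 (adjusted p = 0.00158) and Ugt1a6, a glucuronosyltransferase, by 0.55 ± 0.10 (adjusted p = 0.00109). None of the 17 was called between DKD+enarodustat and DKD. Of 13 partners and regulators of NRF2, 3 were higher in DKD and 1 lower: Maff, a small MAF protein, by 0.88 ± 0.14 (adjusted p = 0.000382), Sqstm1, the p62 protein that binds KEAP1, by 0.64 ± 0.09 (adjusted p = 0.000133), and Palb2, a DNA repair protein that binds KEAP1, by 0.40 ± 0.09 (adjusted p = 0.00313). Dpp3, a peptidase that also binds KEAP1, was the lower one (-0.33 ± 0.06, adjusted p = 0.0016, limma).

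Of 34 other glutathione and thiol genes tested, 5 were higher in DKD and 6 lower, where 8.02% and 9.07% of all genes were. The smallest adjusted p-values were of higher genes: Glrx, glutaredoxin, at 1.57 ± 0.13 (adjusted p = 4.15e-07, limma), Txnip, the thioredoxin-interacting protein that glucose is known to induce, at 1.40 ± 0.13 (adjusted p = 1.36e-06), and the metallothioneins Mt1 at 0.77 ± 0.06 and Mt2A at 0.43 ± 0.06. Slc1a1, a glutamate and cysteine carrier, was lower in DKD+enarodustat than in DKD (-0.51 ± 0.11, adjusted p = 0.0265). It was lost without DKD replicate 1, 3 or 7 or DKD+enarodustat replicate 5, at differences of -0.49 to -0.47, and with the slide row as a covariate it was -0.33 (adjusted p = 0.644). Of the other NADPH-supplying genes, Me2, mitochondrial malic enzyme, was higher in DKD by 0.37 ± 0.10 (adjusted p = 0.0117, limma) and Nadk2, the mitochondrial NAD kinase, by 0.33 ± 0.11 (adjusted p = 0.0464). Nadk2 missed the threshold under all 4 other scalings (0.24 to 0.32) and without any 1 of Sham replicates 1, 3, 4 or 5 or DKD replicates 1, 3, 4 or 7 (0.28 to 0.33). Me2 was higher and Me1 lower in the same comparison.

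Of 17 genes for NADPH oxidases and other oxidant sources that were tested, 2 were higher and 4 lower in DKD. Over all genes 8.02% were higher and 9.07% lower, so the count of higher genes is near the background. Nox4, the oxidase of the tubule, was lower (-0.70 ± 0.13, adjusted p = 0.00128, limma), as were the peroxisomal hydroxyacid oxidases Hao2 (-1.0 ± 0.12, adjusted p = 2.54e-05) and Hao1 (-1.04 ± 0.28, adjusted p = 0.0162). Hao1 missed the threshold without Sham replicate 3 (-0.84) or 5 (-0.90) and without slide 2 (-0.71, adjusted p = 0.128). Maob, monoamine oxidase B, was higher in DKD (0.66 ± 0.17, adjusted p = 0.0131) and lower in DKD+enarodustat than in DKD (-0.73 ± 0.16, adjusted p = 0.0189). Adding the slide row to the fit gave -0.60 for the latter (adjusted p = 0.474), and without slide 2 the Maob differences were 0.59 (adjusted p = 0.11) and -0.57 (adjusted p = 0.224).

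**Figure D5:**
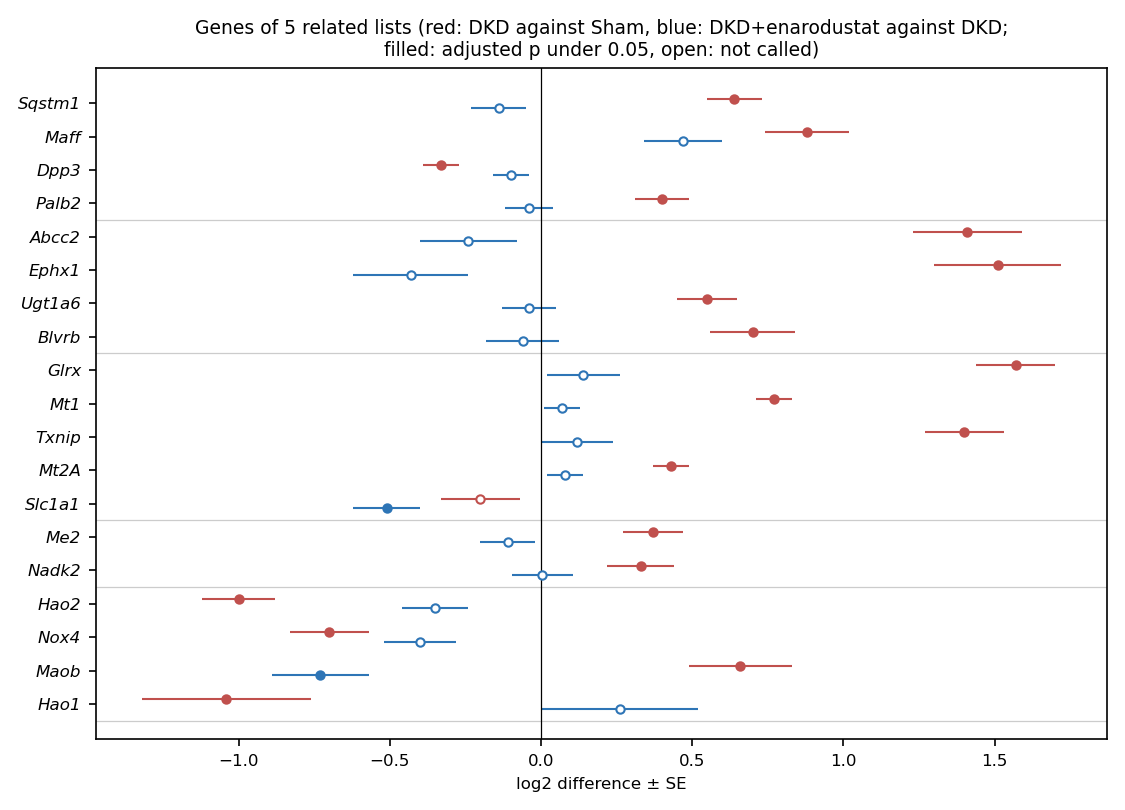
Log2 differences ± SE of the genes named from 5 related lists, from top to bottom NRF2 partners, other NRF2 targets, glutathione and thiol genes, NADPH supply and oxidant sources; red is DKD against Sham and blue DKD+enarodustat against DKD, filled where called. The red points spread from -1.04 for Hao1 to 1.57 for Glrx, and of the blue points those of Slc1a1 and Maob are filled.

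Markers of other cells were read beside these results. In DKD against Sham, 5 of 7 tubular injury markers were higher and 1 lower (range of their mean level -1.82 to -1.38 in Sham and -0.69 to 0.81 in DKD). Of 6 thick ascending limb markers 4 were lower (1.71 to 2.00 in Sham, 0.66 to 1.29 in DKD). Of 8 proximal tubule markers 2 were higher and 4 lower, though their mean level overlapped, at 4.37 to 4.49 in Sham and 4.09 to 4.48 in DKD. Of 5 adipocyte markers tested 3 were higher (-5.92 to -5.49 in Sham, -4.86 to -0.22 in DKD), of 7 leukocyte markers 2 were higher (-3.02 to -2.68 and -2.97 to -2.25) and of 5 podocyte markers 2 were lower (-0.82 to -0.51 and -1.32 to -0.75). The adipocyte mean was uneven: -0.22, -0.5 and -1.64 in DKD replicates 2, 4 and 6, and -4.86 to -4.22 in the other DKD rats. In DKD+enarodustat replicates 3 and 4 it was -1.21 and -1.86. DKD replicates 2 and 4 were also the DKD arrays in row 2, on which the row term rests. Between DKD+enarodustat and DKD, 1 of all these markers was called, the tubular injury marker Krt8, which was lower (-0.37 ± 0.09, adjusted p = 0.041, limma); it is named here after its value was seen. Their part in the members' differences was not tested.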

How the data were processed

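Levels came from 1 single-colour Agilent array per rat. The deposited scanner files hold spot intensities that Agilent Feature Extraction 11.5.1.1 made, per the file headers: the processed signal is background-subtracted and detrended, with surrogate values for dim spots. The authors' deposited value table holds log2 values of 22739 probes, with column medians of 8.13 to 8.21; it correlates at 0.9973 to 0.9993 with scanner intensities after normexp correction and quantile normalisation, and its scale beyond that is not given in the sources used here. The submitters' processing notes name limma.

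The processed intensity was put on a log2 scale, the array's 75th percentile was subtracted, spots of 1 probe were averaged, and probes well above background on at least 5 of 19 arrays were kept (30284). Of several probes of a gene the one with the highest mean level was used, leaving 24238 genes. All 3 groups were fitted together without covariates in limma 3.58.1 (R 4.3.3), with Benjamini-Hochberg adjustment over all genes and a threshold of 0.05. The p-values set each group difference against the spread between rats within the groups. That spread has 16 residual degrees of freedom before limma moderates it across genes. The procedure was tested on simulated data. The number of arrays limits the precision.

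The 34 genes and the related lists were chosen with earlier results of these data known. Values by rat are given for every member past the threshold in a comparison and for Nfe2l2, Keap1, Nqo1 and Hmox1; of each related list, up to 4 genes with the smallest adjusted p in DKD against Sham and in DKD+enarodustat against DKD are named, apart from 1 gene that is not reported here. Deviations of same-numbered rats correlated at 0.13 to 0.59 over 5 pairs for DKD and Sham. For DKD+enarodustat and DKD the correlations were 0.14 to 0.42 over 7 pairs. The same number was the best match in 3 of 5 and 1 of 7 pairs. The labels do not pair the rats, and the numbers follow the slides, so shared slides and pairing cannot be told apart. A fit with the replicate number as a block was read beside the unblocked one. Alternatives were other scalings and background correction, other filters, other probes, slide and slide row terms, values within slides, and leaving out each rat.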

Additional observations from a re-analysis of the deposited data

Results flagged for a closer look

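Among 102 combinations of a member and a group, 4 had 1 rat farther from the rest than Dixon's test at 95% allows, where chance gives about 1 in 20. Gpx3 in Sham replicate 2 was 5.34, with the nearest other Sham rat at 5.59. Prdx3 in Sham replicate 5 was 1.44, with the nearest at 1.57. Sod1 in DKD replicate 6 was 5.63, with the nearest at 5.75. Hmox1 in DKD+enarodustat replicate 4 was -2.16, with the nearest at 0.11.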

How the results depend on the processing

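Of the member calls, 9 of 13 in DKD against Sham, 1 of 1 in DKD+enarodustat against DKD and 13 of 16 in DKD+enarodustat against Sham passed under all 4 other scalings. Counts that moved by over 1.5 times are these. In DKD against Sham (9 higher, 4 lower), centring on medians gave 5 higher; the authors' value table gave 7 lower, no filter on dim probes 2, the slide row as a covariate 1, row 1 alone 2, leaving out DKD replicates 2 and 4 together 1, and leaving out slide 2, chosen after seeing the data, 2. In DKD+enarodustat against DKD (0 higher, 1 lower), the authors' value table gave 1 higher and 4 lower; the slide row as a covariate, row 2 alone and leaving out slide 2 each gave 0 lower. In DKD+enarodustat against Sham (8 higher, 8 lower), the slide row gave 2 higher and 1 lower, and leaving out slide 2 gave 3 lower. Within single slides, with far fewer rats, 0 members passed in each direction. Leaving out 1 rat gave 7 to 9 higher and 2 to 4 lower in DKD against Sham (2 without Sham replicate 1, 3 or 4 or DKD replicate 5), 0 to 0 and 1 to 1 in DKD+enarodustat against DKD, and 7 to 8 and 6 to 8 in DKD+enarodustat against Sham. The fit with a replicate block gave 1 higher member in DKD+enarodustat against DKD, Sod3. It changed no other member's call beside those given with Gclc, Txnrd1, Gpx3 and Txnrd2. Among differences called before or after the change of setting, those that turned in direction were Txnrd1 in DKD against Sham within slide 3 (-0.04) and Taldo1 in DKD+enarodustat against Sham in the authors' value table (-0.10, adjusted p = 0.0358, limma). Uncalled differences near 0 or with wide spread turned sign too, such as Hmox1 in DKD against Sham within slide 3 (-2.10) and Gclm in DKD+enarodustat against Sham with the slide row (1.03). Apart from the fewer rats or genes of some alternatives, the cause was not tested.

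Over all genes, the 484 called in DKD+enarodustat against DKD became 1770 in the authors' value table, 284 without the filter, 291 centred on medians, 276 with those 2 groups alone, 913 with slides as a block, 84 with the slide row, 278 without slide 2 and 285 without DKD replicate 6. The 6317 in DKD+enarodustat against Sham became 10744 without the filter and 1032 with the slide row, and the 4143 in DKD against Sham 2549 without slide 2. The share of called genes that were higher in DKD+enarodustat against DKD was 53.5%, 34.4% in the authors' value table, 61.5% centred on medians, 64.3% with the slide row, 70.3% with those 2 groups alone, 72.9% without the filter and 78.8% without slide 2; in DKD+enarodustat against Sham it was 38.5%, 48.5% with the slide row and 64.4% without the filter, where more genes were higher than lower; in DKD against Sham it was 36.9% with quantile normalisation alone. Signal limited Slc7a11, which was above background on 10 of 19 arrays.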
